A study of Mus musculus with 4 samples.

Results

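The transcripts of 10 genes that write, read or maintain methylation of lysine 9 on histone H3 (H3K9) were followed in mouse embryonic stem cells (ESCs) with and without an engineered *Zfp296* mutation. The genes were taken by name: the H3K9 methyltransferases *Setdb1*, *Ehmt1*, *Ehmt2*, *Suv39h1* and *Suv39h2*, the corepressor *Trim28*, the heterochromatin protein 1 (HP1) genes *Cbx1*, *Cbx3* and *Cbx5*, and the remodeller *Atrx*. All 10 of the 48526 genes in the count files were found, each under 1 Ensembl identifier, and all 10 were among the 12883 genes with enough counts to be tested. The groups were 2 libraries labelled WT, from R1 ESCs, and 2 libraries labelled KO2, from clone 2 of R1 ESCs in which CRISPR/Cas9 had been directed at the first exon of *Zfp296*. ZFP296 is a zinc finger protein that binds the NuRD complex, a nucleosome remodelling and histone deacetylase complex. Per the methods both lines were grown on gelatine in DMEM with serum, LIF and the inhibitors PD0325901 (MEK) and CHIR99021 (GSK3), and RNA was isolated in duplicate. The KO2 libraries come from 1 clone, so what the mutation does and what is particular to that clone cannot be told apart. RNA-seq counts on genes ranged from 2829914 to 4334499 in WT libraries and from 7437294 to 7470907 in KO2 libraries, so the more deeply sequenced group was KO2.

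H3K9 methylation marks silent chromatin, and in ESCs it keeps retroviral repeats, satellite repeats and many germline genes silent. SETDB1 trimethylates H3K9 where TRIM28 brings it, GLP (*Ehmt1*) and G9a (*Ehmt2*) act as a pair that mainly dimethylates H3K9 in euchromatin, and SUV39H1 and SUV39H2 trimethylate it at pericentric satellites. HP1 proteins bind the methylated tail and hold further repressors, and ATRX places the variant histone H3.3 at telomeres, satellites and silenced repeats together with DAXX. These are roles known from other work and were not measured here.

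*Zfp296* itself (ENSMUSG00000011267, chromosome 7 from 20162636 to 20166005 on the plus strand, NCBIM37) was not lower in the libraries labelled KO2. It had 31 counts in each WT library and 416 and 282 counts in KO2 replicates 1 and 2. As CPM, the share of a library's gene counts after TMM scaling, these were 11.6 and 7.33 in WT and 52.8 and 37.7 in KO2, a log2 fold change of 2.31 (SE 0.286, adjusted p = 4.643e-05, edgeR quasi-likelihood fit, Benjamini-Hochberg over all tested genes). The amount of transcript goes against what a knockout label would lead one to look for, and gene counts do not read the edited bases. Per the methods the clones were analysed by sequencing, and the paper's results report that mass spectrometry verified them as knockouts. Neither was analysed here. *Dazl* and *Lefty2*, taken because the study followed them in this clone, were lower in the KO2 libraries, with log2 fold changes of -2.19 (SE 0.113, adjusted p = 3.196e-10) and -2.07 (SE 0.123, adjusted p = 2.269e-09, both edgeR). WT and KO2 therefore mean the libraries so labelled throughout, and every direction below rests on those labels. The Y-linked genes *Ddx3y*, *Eif2s3y* and *Uty* had at most 1 count in a WT library and 91.7 to 294 CPM in the KO2 libraries. Y-linked RNA thus separated fully with the label, although both lines are given as R1 ESCs. What goes with it and what goes with the mutation cannot be told apart, and its part in the differences below was not tested. Of the ESC markers, *Pou5f1*, *Nanog*, *Zfp42*, *Esrrb* and *Klf4* were expressed at 208 CPM or more in every library and were not called. *Sox2* was lower in KO2, at 483 and 489 CPM compared to 873 and 806 CPM in WT (adjusted p = 7.818e-05, edgeR). The summed level of 7 fibroblast markers was 0.936 to 3.54 CPM per library, and that of 5 primitive endoderm markers 3.07 to 10.4 CPM. The sum of 6 markers of primed cells or early germ layers was 144 and 149 CPM in WT and 177 and 182 CPM in KO2, nearly all of it from *Nes* and *Otx2*. *Nes* had 97.6 and 86.5 CPM in WT and 113 and 120 CPM in KO2 (log2 fold change 0.35, SE 0.136, adjusted p = 0.1581, edgeR), and the part of these markers in the results was not tested.

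None of the 10 factors was called at an adjusted p under 0.05 by edgeR's quasi-likelihood test, compared to 5.64% of all tested genes. DESeq2 called none of them either, compared to 4.01% of the genes for which it gave an adjusted p. At an unadjusted p under 0.05, edgeR gave 3 of the 10, *Setdb1* and *Cbx5* upward and *Atrx* downward, compared to 19.4% of all tested genes. The log2 fold changes of the 10 factors ran from -0.26 (*Atrx*) to 0.27 (*Setdb1*) with a median of -0.026, and the median over all tested genes was 0.013. Without regard to sign, the median log2 fold change was 0.17 for the factors and 0.27 for all tested genes.

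A missed threshold does not show that levels were equal, so the 95% interval of each fold change was set against fixed limits. For 9 of the 10 factors the interval lay within 1.5-fold in both directions, compared to 30.5% of all tested genes. The exception was *Suv39h1*, whose interval from 0.616 to 1.61 on the fold scale stayed within 2-fold only. At a limit of 1.25-fold only 1 of the 10 intervals was inside, that of *Cbx3* from 0.831 to 1.13, compared to 4.37% of all tested genes. The factors are abundant, with 9 of 10 above the median of 22.5 CPM for tested genes, and their 95% limits lay a median of 0.235 from the log2 fold change, compared to 0.542 over all tested genes.

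**Figure D1:**
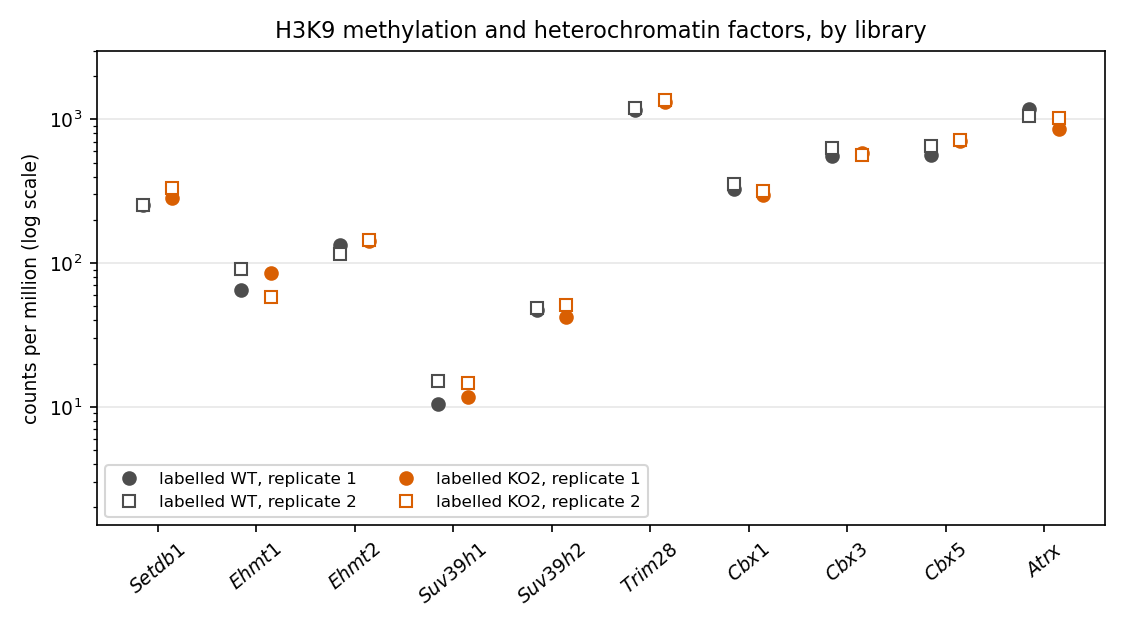
CPM (log axis) of the 10 factors in each library, with filled circles for replicate 1 and open squares for replicate 2, in grey for WT and orange for KO2. Levels run from 10.4 CPM (*Suv39h1*) to 1362 CPM (*Trim28*). On this axis the points of a gene lie close together even where libraries differ, as for *Ehmt1* with 57.9 to 91 CPM.

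**Figure D2:**
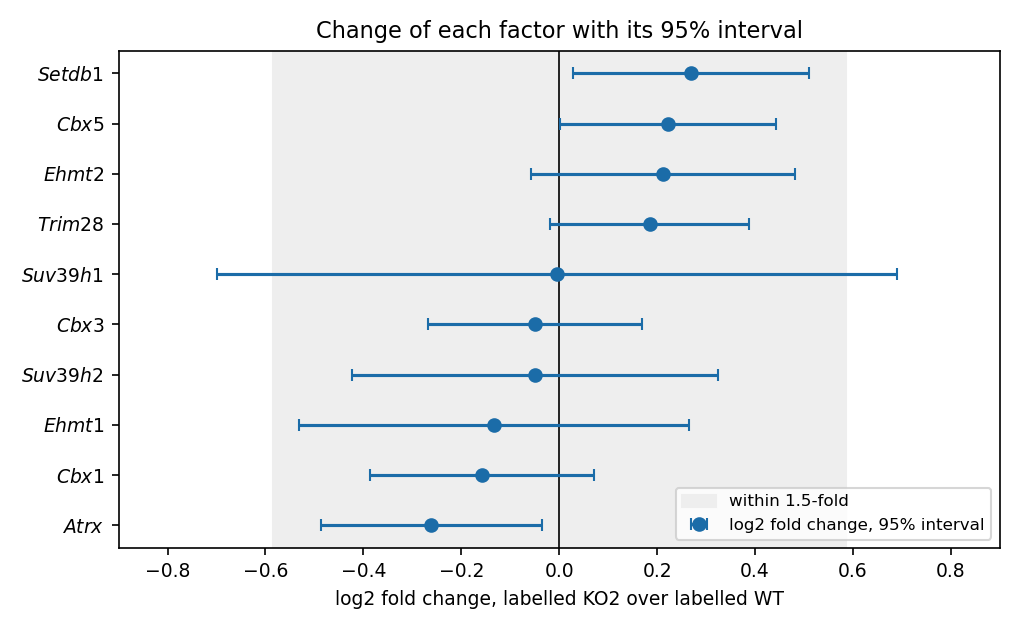
Log2 fold change of each factor (KO2 over WT) as a point with its 95% interval from edgeR's quasi-likelihood fit, and the range within 1.5-fold shaded. All intervals except that of *Suv39h1* lie inside the shading, and the intervals of *Setdb1*, *Cbx5* and *Atrx* leave out 0 before adjustment over all tested genes.

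*Setdb1* (ENSMUSG00000015697, chromosome 3 from 95127447 to 95161124, minus strand, NCBIM37), the enzyme at TRIM28-bound repeats, received 683 and 1078 counts in the WT libraries, against 2232 and 2476 in those of KO2. Its level was 254.5 and 254.7 CPM in WT and 283 and 331 CPM in KO2. Both KO2 libraries lay above both WT libraries, which were nearly equal, while the KO2 libraries differed by 1.17-fold. The log2 fold change was 0.27 (SE 0.115, unadjusted p = 0.0303, adjusted p = 0.1999, edgeR), and the interval of the fold ran from 1.02 to 1.42. It was the highest log2 fold change among the 10 factors and did not pass the test.

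The pair *Ehmt1* and *Ehmt2* gave different precision. *Ehmt2* (G9a, ENSMUSG00000013787, chromosome 17 from 35035414 to 35050997, plus strand) had 133 and 116 CPM in WT and 142 and 145 CPM in KO2. Both KO2 libraries were higher than both WT libraries, with a gap smaller than that between the WT libraries, and the adjusted p was 0.3943 (log2 fold change 0.21, SE 0.129, edgeR). *Ehmt1* (GLP, ENSMUSG00000036893, chromosome 2 from 24646289 to 24775129, minus strand) had 64.5 and 91 CPM in WT and 85.2 and 57.9 CPM in KO2. The replicates of each group differed by up to 1.47-fold, the largest replicate difference among the 10 factors, and the groups overlapped. Its log2 fold change was -0.13 (SE 0.19, adjusted p = 0.7708, edgeR), and it was -0.44 without KO2 replicate 1, 0.10 without KO2 replicate 2 and 0.15 without WT replicate 2, so single libraries set its direction.

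*Suv39h1* (ENSMUSG00000039231, chromosome X from 7638297 to 7651886, minus strand) was the least abundant factor, with 28 and 64 counts in WT libraries against 92 and 109 in KO2 libraries. These are 10.4 and 15.1 CPM in WT and 11.7 and 14.6 CPM in KO2, so the groups overlapped fully and the log2 fold change was -0.004 (SE 0.331, adjusted p = 0.9972, edgeR). The annotated transcript *Gm14820* runs over 13449 bp of this locus on the opposite strand and had 18 to 59 counts per library. The counting option for strand is not given in the sources used here, so the count of *Suv39h1* is uncertain by an amount that was not measured. *Suv39h2* (ENSMUSG00000026646, chromosome 2 from 3373087 to 3392303, minus strand), its paralogue, had 47 and 48.9 CPM in WT and 42 and 50.9 CPM in KO2. Here too the groups overlapped, with a log2 fold change of -0.049 (SE 0.178, adjusted p = 0.9188, edgeR). *Dclre1c* overlaps it over 8316 bp on the opposite strand, with 73 to 202 counts per library.

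*Trim28* (ENSMUSG00000005566, chromosome 7 from 13609501 to 13616384, plus strand), the corepressor that links KRAB zinc finger proteins to SETDB1, was the most abundant of the factors. WT libraries held 3099 and 5112 of its counts and KO2 libraries 10439 and 10188, giving 1155 and 1208 CPM compared to 1324 and 1362 CPM. Both KO2 libraries were higher by more than the replicates differed. The log2 fold change was 0.18 (SE 0.097, adjusted p = 0.3096, edgeR), and the interval of the fold ran from 0.987 to 1.31. A lower mean CPM was found for 99.6% of tested genes.

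*Atrx* (ENSMUSG00000031229, chromosome X from 102992954 to 103124736, minus strand) received 3163 and 4496 counts in WT libraries, against 6746 and 7586 in KO2 libraries. Its level was 1179 and 1062 CPM in WT and 855 and 1014 CPM in KO2, with both KO2 libraries below both WT libraries and KO2 replicate 2 close to WT replicate 2. The log2 fold change was -0.26 (SE 0.108, unadjusted p = 0.0259, adjusted p = 0.1846, edgeR), the lowest among the 10 factors. Without KO2 replicate 2, the nearer of the KO2 libraries, *Atrx* fell by 0.39 on the log2 scale with an adjusted p of 0.03837 (edgeR), the only call of any factor under any setting tried. *Atrx* and *Suv39h1* are both X-linked. The 428 tested X-linked genes had a median log2 fold change of -0.059, compared to 0.013 over all tested genes. Of these X-linked genes, 8 were called higher and 21 lower in KO2. Among all 12883 tested genes, 335 (2.6%) were called higher and 391 (3.04%) lower. An annotated pseudogene, *Gm14853*, lies inside *Atrx* on the same strand and had 6 to 21 counts per library.

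None of the 3 HP1 genes passed the test, and their log2 fold changes had different signs. *Cbx5* (HP1 alpha, ENSMUSG00000009575, chromosome 15 from 103021975 to 103070247, minus strand) had 567 and 654 CPM in WT and 712 and 713 CPM in KO2. The KO2 libraries were nearly equal and above both WT libraries, with a log2 fold change of 0.22 (SE 0.105, unadjusted p = 0.0477, adjusted p = 0.2522, edgeR). *Cbx1* (HP1 beta, ENSMUSG00000018666, chromosome 11 from 96650441 to 96669954, plus strand) had 328 and 356 CPM in WT and 296 and 317 CPM in KO2. Both KO2 libraries lay below both WT libraries, with a gap smaller than that between the replicates of either group. The log2 fold change was -0.16 (SE 0.109, adjusted p = 0.4742, edgeR). *Cbx3* (HP1 gamma, ENSMUSG00000029836, chromosome 6 from 51420359 to 51433703, plus strand) had 557 and 629 CPM in WT and 579 and 569 CPM in KO2. Its KO2 libraries fell between the WT libraries, and the log2 fold change was -0.048 (SE 0.104, adjusted p = 0.8601, edgeR). Reads without a unique position were set apart before counting, so the level of *Cbx3*, a gene with processed copies elsewhere in the genome, is uncertain. The annotated copy *Cbx3-ps3* had 0 counts in every library.

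Of the 10 factors, 4 (*Setdb1*, *Ehmt2*, *Trim28* and *Cbx5*) had both KO2 libraries above both WT libraries, 2 (*Cbx1* and *Atrx*) had both below, and 4 overlapped. Over all tested genes, 25.4% had both KO2 libraries above and 23.4% both below.

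To compare levels between genes, CPM were divided by the summed length of each gene's exons in kb (RPKM). On this scale *Trim28* was highest at 286 to 337 RPKM, followed by *Cbx3* at 173 to 195 RPKM. *Cbx1* (69.4 to 83.2), *Cbx5* (62.9 to 79.1) and *Atrx* (56.3 to 77.6 RPKM) followed, with ranges that overlapped from one to the next. *Setdb1* had 37.1 to 48.3 RPKM, *Ehmt2* 21.1 to 26.4 RPKM, *Suv39h2* 9.52 to 11.5 RPKM, *Ehmt1* 8.13 to 12.8 RPKM and *Suv39h1* 1.98 to 2.87 RPKM. The ranges of *Suv39h2* and *Ehmt1* overlapped, and those of the other neighbours in this order did not. With the longest annotated transcript as the length, *Atrx* moved ahead of *Cbx5* and *Ehmt1* ahead of *Suv39h2*. The means of *Cbx1*, *Atrx* and *Cbx5* were then 136, 100 and 75.1 CPM per kb, so how close these genes lie depends on the length used. Transcripts of *Setdb1* made up 43.7% to 45.4% of the summed methyltransferase RPKM in WT replicates 1 and 2 and KO2 replicate 1, and 49.7% in KO2 replicate 2.

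The make-up of the HP1 transcripts was read within each library, where library scaling cancels. *Cbx5* gave 20.2% and 20.7% of the summed HP1 RPKM in WT and 24.1% and 24.0% in KO2. *Cbx1* gave 24.6% and 23.7% in WT and 21.2% and 22.5% in KO2, and *Cbx3* 55.3% and 55.6% in WT and 54.7% and 53.5% in KO2. The sum itself overlapped between the groups, at 312 and 351 RPKM in WT and 328 and 329 RPKM in KO2. The ratio of *Cbx5* to *Cbx1* counts, which needs no length, was 1.73 and 1.84 in WT and 2.40 and 2.25 in KO2, and that of *Cbx5* to *Cbx3* was 1.02 and 1.04 in WT and 1.23 and 1.254 in KO2. Both ratios were higher in both KO2 libraries by more than replicates differed. The ratio of *Cbx3* to *Cbx1* was 1.70 and 1.77 in WT and 1.95 and 1.80 in KO2, without overlap but with KO2 replicate 2 close to WT replicate 2. The ratio of *Ehmt2* to *Ehmt1* (1.27 to 2.501) and that of *Suv39h2* to *Suv39h1* (3.23 to 4.50) overlapped between the groups. With 2 libraries against 2, an exact two-sided permutation test cannot give a p below 0.333. The 5 ratios computed are therefore given as descriptions without a test. Of these 5 ratios, 3 did not overlap, and these 3 are drawn from the same 3 HP1 genes. How often ratios of other gene pairs separate was not computed. For single genes, 25.4% of all tested genes had both KO2 libraries above both WT libraries in CPM and 23.4% both below.

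**Figure D3:**
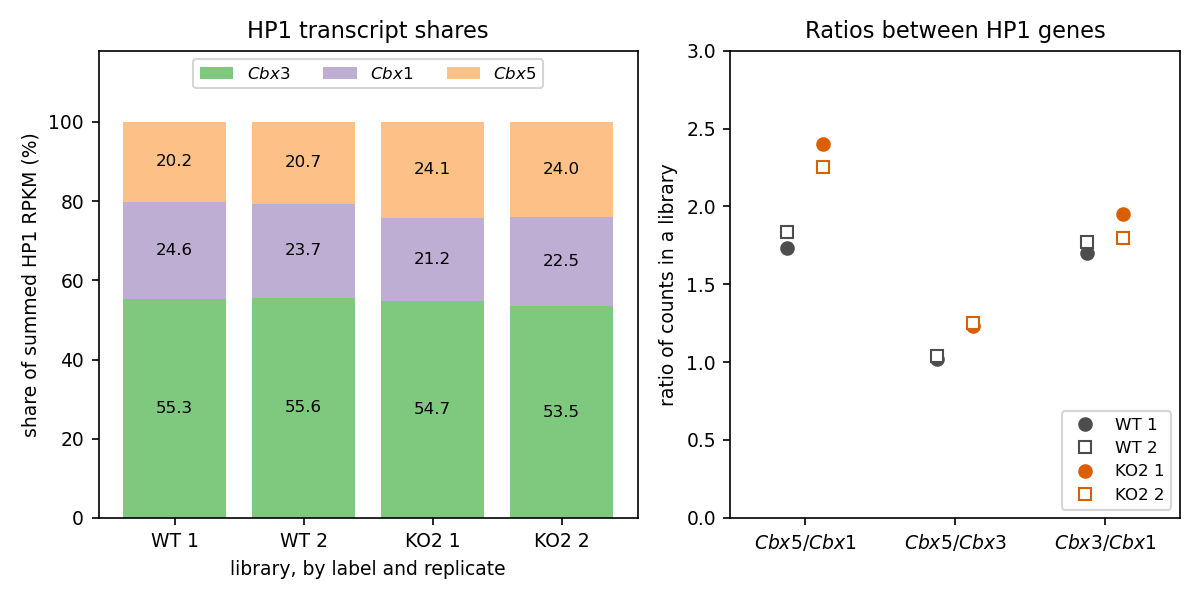
Left, share of each HP1 gene in the summed HP1 RPKM of each library (stacked bars, percent), and right, ratios of raw counts between HP1 genes in each library, with WT in grey and KO2 in orange. The *Cbx5* share is 20.2% and 20.7% in WT and 24.1% and 24.0% in KO2, and the ratio to *Cbx1* is 1.73 and 1.84 in WT and 2.40 and 2.25 in KO2.

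Start sites of 3 factors lie within 1 kb of a gene read in the other direction. *Cbx3* starts 466 bp from *Hnrnpa2b1* and *Cbx5* starts 698 bp from *Hnrnpa1*, both of which encode abundant RNA-binding proteins, and *Ehmt2* starts 17 bp from the complement gene *C2* (NCBIM37). *Hnrnpa2b1* had 1593 and 1531 CPM in WT and 1647 and 1410 CPM in KO2, with a log2 fold change of -0.031 (SE 0.103, adjusted p = 0.909, edgeR), beside -0.048 for *Cbx3*. *Hnrnpa1* had 313 and 331 CPM in WT and 397 and 313 CPM in KO2, with a log2 fold change of 0.14 (SE 0.121, adjusted p = 0.5856, edgeR), beside 0.22 for *Cbx5*. The libraries of both groups overlapped for *Hnrnpa2b1* and *Hnrnpa1*. *C2* received 1 and 0 counts in the WT libraries against 4 and 9 in those of KO2, too few to be tested, beside 357 to 1123 counts per library for *Ehmt2*.

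The 250 bases before the start site are shown for the factors at either end of the fold changes, *Setdb1* and *Atrx*, and for the HP1 genes with a divergent neighbour, *Cbx3* and *Cbx5*. They come from RefSeq on GRCm38.p6, a later build than that of the gene positions above, and are written in the direction of the gene with CpG dinucleotides in capitals. The windows are chr3:95357203-95357452 (minus strand), chrX:105929373-105929622 (minus), chr6:51470366-51470615 (plus) and chr15:103239853-103240102 (minus). *Cbx3* and *Cbx5* each have a second RefSeq start that is not shown.
Setdb1: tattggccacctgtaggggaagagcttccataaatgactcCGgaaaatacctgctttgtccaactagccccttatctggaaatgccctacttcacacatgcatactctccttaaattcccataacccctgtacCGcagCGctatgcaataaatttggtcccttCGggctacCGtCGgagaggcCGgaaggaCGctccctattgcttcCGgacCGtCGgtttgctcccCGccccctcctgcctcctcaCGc
Atrx: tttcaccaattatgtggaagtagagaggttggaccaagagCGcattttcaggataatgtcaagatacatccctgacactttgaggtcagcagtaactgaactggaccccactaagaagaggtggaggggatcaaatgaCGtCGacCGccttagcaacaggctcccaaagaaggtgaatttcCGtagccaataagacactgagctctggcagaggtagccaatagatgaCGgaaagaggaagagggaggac
Cbx3: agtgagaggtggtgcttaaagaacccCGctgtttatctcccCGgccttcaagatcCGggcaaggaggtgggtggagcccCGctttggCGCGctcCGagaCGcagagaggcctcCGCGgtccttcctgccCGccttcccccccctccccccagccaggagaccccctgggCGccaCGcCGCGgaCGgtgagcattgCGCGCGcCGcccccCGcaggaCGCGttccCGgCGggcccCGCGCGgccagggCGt
Cbx5: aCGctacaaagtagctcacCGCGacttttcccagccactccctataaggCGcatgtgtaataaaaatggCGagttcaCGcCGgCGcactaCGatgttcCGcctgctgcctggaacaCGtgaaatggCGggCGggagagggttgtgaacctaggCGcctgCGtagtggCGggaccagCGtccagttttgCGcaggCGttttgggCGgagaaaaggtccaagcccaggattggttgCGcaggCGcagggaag

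The 4 windows shown differed in CpG number. *Atrx* has 6 CpGs in its window, equal to the median of 6 over all 32851 RefSeq windows of this length. *Setdb1* has 13, *Cbx5* 22 and *Cbx3* 29. In the windows not shown, *Cbx5* has 7 and *Cbx3* 31, so the CpG number of *Cbx5* depends on the start used. Of the 14 windows of the 10 factors, 13 had more CpGs than that median, up to 36 in 1 of the *Ehmt2* windows. The telomere repeat unit TTAGGG, which the paper reports as the top motif at sites bound by GFP-tagged ZFP296, was searched on both strands. It was in 0 of the 14 windows and in 9.32% of all windows, and a window with or without these letters says nothing about binding. It was present in both windows of *Hnrnpa2b1*, the divergent neighbour of *Cbx3*.

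Other genes of the same pathways were taken from lists of 65 genes grouped by role, of which 63 were found in the files and 53 had enough counts to be tested. Of these 53, 0 were called higher in KO2 (2.6% of all tested genes) and 2 were called lower (3.04%). Their median log2 fold change was -0.099, compared to 0.013 over all tested genes. Both KO2 libraries were below both WT libraries for 17 of them (32.1%, compared to 23.4% of all tested genes) and above for 7 (13.2%, compared to 25.4%). An unadjusted p under 0.05 was found for 9 of the 53 (17.0%), a share below the 19.4% of all tested genes. Of the 9, 8 were lower and 1 higher, and the split by direction was not computed over all tested genes.

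*Trim24*, a paralogue of *Trim28* with a PHD finger and bromodomain, was lower in KO2. It had 334 and 332 CPM in WT and 194 and 231 CPM in KO2, with a log2 fold change of -0.65 (SE 0.117, adjusted p = 0.002066, edgeR), and DESeq2 also called it (adjusted p = 5.748e-05). With spike-in scaling its log2 fold change was -0.54 and its adjusted p 0.7753, and with no filter on low counts the adjusted p was 0.1382 (both edgeR). *Cdyl2*, a chromodomain protein that binds methylated H3K9, was also lower. It had 136 and 128 CPM in WT and 97.6 and 94.9 CPM in KO2, with a log2 fold change of -0.45 (SE 0.13, adjusted p = 0.04629, edgeR), close to the threshold. It was not called without any 1 of the 4 libraries (adjusted p = 0.08893 to 0.1699, edgeR), and DESeq2 did not call it (adjusted p = 0.09173).

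Among the partners of the methyltransferases and other H3K9 enzymes, edgeR called 1 of 10 tested genes (*Cdyl2*), compared to 5.64% of all tested genes. The median log2 fold change of this list was -0.24. *Zfp644*, a zinc finger partner of G9a and GLP and the most abundant gene of this list, had 142 and 170 CPM in WT and 119 and 142 CPM in KO2 (adjusted p = 0.2979, edgeR). *Prdm2*, a PR-domain H3K9 methyltransferase picked out after its values were seen, had 57.8 and 54.1 CPM in WT and 79.5 and 79.4 CPM in KO2, and just missed the threshold (log2 fold change 0.51, SE 0.152, adjusted p = 0.05651, edgeR).

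The HUSH complex silences repeats together with SETDB1. None of its 4 tested genes was called by edgeR, compared to 5.64% of all tested genes. An unadjusted p under 0.05 was found for 2, and DESeq2 called 1, where all tested genes gave 19.4% and 4.01%. A list of 4 genes is too short to read a share from. *Fam208a* (TASOR), its scaffold, had 598 and 638 CPM in WT and 463 and 521 CPM in KO2, with a log2 fold change of -0.33 (SE 0.106, adjusted p = 0.07729, edgeR, and 0.04905, DESeq2). Without KO2 replicate 2 its adjusted p was 0.04203 (edgeR). *Mphosph8*, the chromodomain subunit, was named after its values were seen and had 299 and 298 CPM in WT and 226 and 244 CPM in KO2 (log2 fold change -0.34, SE 0.111, adjusted p = 0.0795, edgeR).

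Of the TRIM28 family and KRAB zinc finger adapters, edgeR called 1 of 8 tested genes (*Trim24*), compared to 5.64% of all tested genes. The median log2 fold change of the 8 was -0.068. *Zfp568*, a KRAB zinc finger protein that represses a placental promoter of *Igf2*, was the most abundant of them, at 379 and 413 CPM in WT and 412 and 420 CPM in KO2 (log2 fold change 0.07, adjusted p = 0.7869, edgeR). *Zfp57*, which keeps imprinted regions methylated and was named after its values were seen, had 226 and 201 CPM in WT and 210 and 198 CPM in KO2 (adjusted p = 0.8366, edgeR). The groups overlapped for both.

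Of the 10 tested H3K9 demethylase genes, edgeR and DESeq2 called 0, compared to 5.64% and 4.01% of all genes with an adjusted p from each. An unadjusted p under 0.05 was found for 2 of the 10, near the 19.4% of all tested genes, and the median log2 fold change was -0.10. *Kdm1a* (LSD1), the most abundant, had 392 and 360 CPM in WT and 295 and 312 CPM in KO2. Both KO2 libraries were lower, with a log2 fold change of -0.31 (SE 0.108, adjusted p = 0.1128, edgeR). Of the 12 tested HP1 partners and genes of heterochromatin maintenance, edgeR called 0, compared to 5.64% of all tested genes. An unadjusted p under 0.05 was found for 1 (8.33%), below the 19.4% of all tested genes. DESeq2 called 1 of the 12, *Hells*, compared to 4.01% of all genes with an adjusted p. *Hells*, a remodeller needed for DNA methylation of repeats, had 979 and 952 CPM in WT and 751 and 821 CPM in KO2 (log2 fold change -0.30, SE 0.1, adjusted p = 0.09485, edgeR, and 0.04053, DESeq2).

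Of the 9 tested genes of the variant histone deposited by ATRX and DAXX and of its chaperones, neither edgeR nor DESeq2 called any. All genes with an adjusted p gave 5.64% and 4.01%. Of the 9, 0 had an unadjusted p under 0.05, compared to 19.4% of all tested genes, and their median log2 fold change was 0.073. *H3f3b*, 1 of the genes for that variant, had 433 and 520 CPM in WT and 586 and 521 CPM in KO2 (log2 fold change 0.21, SE 0.114, adjusted p = 0.3156, edgeR). *Daxx*, the partner of ATRX and also named after its values were seen, had 81.6 and 103 CPM in WT and 83.3 and 83.9 CPM in KO2 (adjusted p = 0.6388, edgeR). Genes known to be silenced by G9a and GLP, *Wfdc15a* and the *Magea* family, stayed near the floor: 7 of 9 listed genes were in the files, none had enough counts to be tested, and the highest value was 1.42 CPM (*Magea4* in WT replicate 2). A count of 3 corresponds to 0.38 to 1.12 CPM in these libraries, so small differences between such genes were not detectable at this depth. Reads without a unique position, 35.6% to 40.4% of the counts of a library, were also set apart before counting. How many of them came from the *Magea* family was not measured, so its low counts are uncertain.

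**Figure D4:**
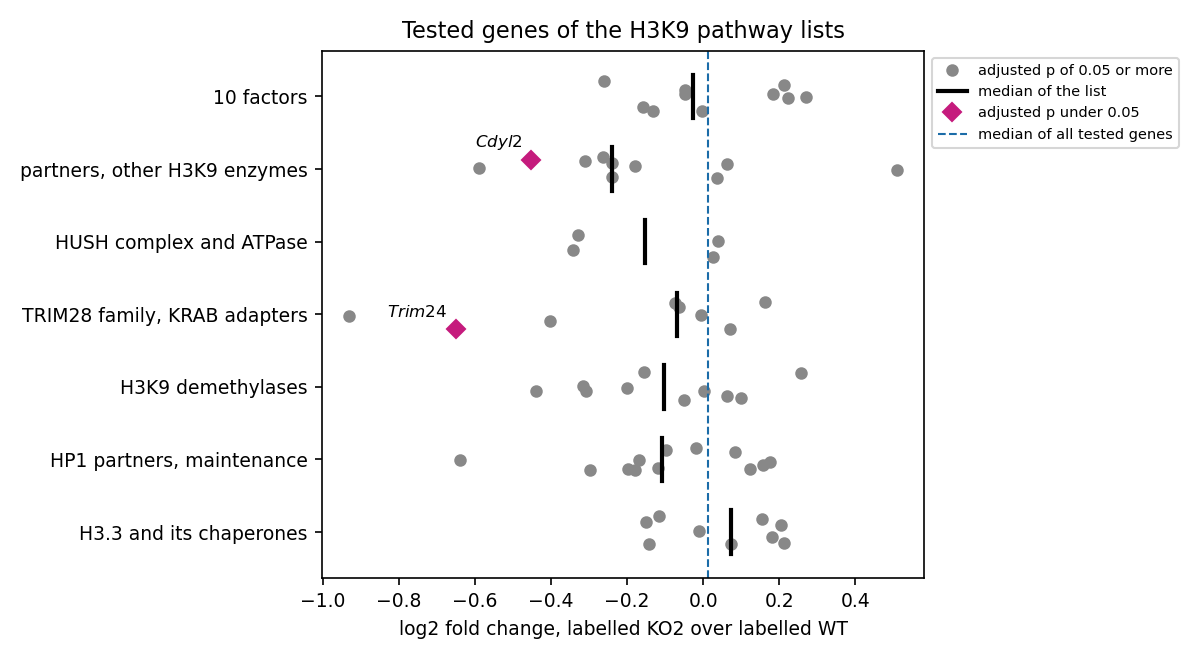
Log2 fold change (KO2 over WT) of every tested gene in the 10 factors and in 6 pathway lists, with black bars for list medians, a dashed line for the median of all tested genes and diamonds for genes called by edgeR at an adjusted p under 0.05. The called genes are *Trim24* and *Cdyl2*, both lower in KO2, and the 10 factors lie between -0.26 and 0.27.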

How the data were processed

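RNA-seq was analysed for 2 libraries labelled WT and 2 labelled KO2. Per the methods and labels, the authors depleted ribosomal RNA, made strand-specific libraries, mapped reads to mm9 with HISAT2 and counted them with HTSeq (versions not given in the sources used here), and deposited raw counts per gene for each replicate. Rows that name no gene held 52.9% to 58.8% of the counts and stayed out of library sizes and tests, as did 92 ERCC spike-in rows. Gene models of NCBIM37 gave symbols, positions and lengths for 32782 identifiers.

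Across all genes kept by filterByExpr (minimum count 10, minimum total 15), KO2 was compared to WT with TMM scaling and edgeR 4.0.16 (R 4.3.3; glmQLFit with legacy=FALSE, glmQLFTest), with group as the only term and Benjamini-Hochberg adjustment at 0.05. Standard errors and 95% intervals follow from the quasi-likelihood F statistic. DESeq2 1.42.0 and the other alternatives are given in the closing section. Replicates differed by more than sampling noise (chi-square per gene 6.36 in WT and 24.1 in KO2) and were counted separately. The labels call them biological replicates but name no separate cultures, so p-values measure only the spread between these libraries.

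The 10 genes and the pathway lists were chosen with earlier results of these data known. Named were *Zfp296*, the 10 genes, neighbours with a divergent start within 1 kb, called genes of the lists (up to 15), the most abundant gene of each list and the Y-linked genes. Others are said to be chosen after their values were seen.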

Additional observations from a re-analysis of the deposited data

How the results depend on the processing

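The count of factors called stayed at 0 under RLE scaling, ERCC spike-in scaling, no filter and a filter of 10 counts in every library. It was also 0 with the older quasi-likelihood method, the replicate block and DESeq2. Over all genes, 726 were called in the main fit (5.64% of those tested), 163 with spike-in scaling and 61 with no filter. With so few calls, 0 of 10 says little about the factors. Without single replicates the count was 0 to 1, the 1 being *Atrx* without KO2 replicate 2. *Setdb1*, *Ehmt2*, *Trim28*, *Cbx1*, *Cbx5* and *Atrx* kept their direction in all 11 alternatives. *Ehmt1* changed sign in 2, *Suv39h2* in 2 (spike-in scaling among them), *Cbx3* in 2 (spike-in scaling among them) and *Suv39h1*, with a fold change near 0, in 8. The smallest adjusted p of *Setdb1* over the alternatives was 0.1374 and that of *Cbx5* 0.1897 (edgeR or DESeq2). The range for *Atrx* ran from 0.03837 to 0.9999.

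Of all tested genes, 726 were called, and 163 with spike-in scaling, 61 with no filter, 454 with DESeq2 and 270 (without WT replicate 1) to 691 without 1 replicate. Of the other pathway genes, 2 were called, and 2 with RLE scaling, 3 with the filter of 10 counts in every library and 3 with DESeq2. The count was 0 with spike-in scaling, 0 with no filter, 1 with the older method and 4 with the replicate block. The causes were not tested. The KO2 minus WT difference in the *Cbx5* share of HP1 RPKM was 3.65 percentage points, and 2.61 with the longest transcript as length, in which the lengths alone differ. With that length the *Cbx5* share was 13.0% and 13.3% in WT and 15.8% and 15.7% in KO2, and the *Cbx3* share overlapped between the groups.

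The replicate numbers are only numbers in the labels, and deviations of same-numbered libraries correlated at -0.00658 across genes, so no pairing was assumed. With the replicate block, 946 genes were called. *Suv39h1*, the factor with the fewest counts, ranged from -0.21 without WT replicate 1 to 0.33 without WT replicate 2 on the log2 scale.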
